A study of Mus musculus with 4 samples.

Results

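The interferon-responsive genes described here are a list of 39 genes that cells switch on after interferon, and 34 of them were measured among 22180 genes on the arrays. A gene was taken as measured where a probe set carried its symbol and no other, and the brightest such probe set over the 4 arrays stood for it. Oas1a, Ifi47, Tgtp1 and Gbp2 lay only on probe sets shared with another gene, and Ifi44 was not listed in the probe table, so these 5 members were not analysed here. The list falls into 25 measured type I antiviral genes and 9 measured GTPases that interferon gamma induces.

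The tissue was the epigonadal fat pad of male mice that had been fasted, a white visceral depot next to the epididymis and testis, and each of the 4 groups gave 1 array. The Irs1/2-flox control carries floxed alleles of the insulin receptor substrates Irs1 and Irs2 without Cre, and LDKO mice carry the same alleles with Albumin-Cre. Mice of the Irs1/2:FoxO1-flox control carry floxed Foxo1 besides, and adding Albumin-Cre to that line gives LTKO mice. These controls are called the Irs control and the FoxO1 control below. The albumin promoter drives Cre in hepatocytes, so the deletions are made in liver and fat is read at a distance. In fat Foxo1 stayed between 8.02 and 8.37 and Irs2 between 7.62 and 7.96, while Irs1 was 6.96 in the Irs control, 7.46 in LDKO, 7.86 in the FoxO1 control and 7.09 in LTKO, and these whole-transcript signals do not report the floxed exons alone. Mice of both Cre lines were 4 months of age, and neither the age of the controls, nor the strain background of the lines, nor the number of mice behind an array is stated by the labels. With 1 array per group there is no replicate check, no error and no p-value for any difference below. Values are log2 signals, on which 1 unit is 2-fold, and differences are log2 differences.

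Interferons are secreted proteins that warn cells of infection. Type I interferons bind the receptor made of Ifnar1 and Ifnar2, which acts through a complex holding Stat2 and Irf9 on a DNA element called the interferon-stimulated response element, while interferon gamma, made mostly by T and NK cells, acts on gamma-activated sites. In adipose tissue the responding cells include macrophages, lymphocytes, endothelial cells and adipocytes themselves.

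The tissue label was borne out by adipocyte markers, since all 9 measured lay above the median gene on the mean of the arrays and Fabp4 lay between 12.98 and 13.09. The LTKO array stood apart in markers of other tissues. Relative to its control, 4 of 6 epididymis markers, 5 of 6 testis germ cell markers and 7 of 7 hepatocyte markers were at least 1.5-fold higher there, with albumin (Alb) at 9.82 against 6.93. Of all 22180 genes 690 were that much higher. Where this RNA came from was not tested. Every LTKO value below rests on that array, so no result can be given without it, and the part of these signals in the results was not tested. Pearson's r between pairs of arrays across genes ran from 0.986 to 0.991.

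The response elements that give these genes their name were looked up in RefSeq promoter windows (GRCm38.p6), from 250 bases before to 50 after each annotated start. Of the 39 members 28 were in that table. The core of the response element, GAAA, any pair of bases and GAAA again, on either strand, was found for 19 of these 28 members (67.9%), against 3.99% of all 27025 genes in the table. The core of the gamma-activated site, TTCNNNGAA, which reads the same on both strands, was found for 11 of 28 (39.3%), against 9.55% of all genes. Windows holding both were found for 8 members (28.6%), against 0.54% of all genes, and 5 of the 8 were among the 9 GTPases in the table, including Tgtp1. A match describes the letters in the window and is not a measured binding site.

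The stretches below belong to a choice of the members that hold a core, with the motif cores in capitals and 20 flanking bases on either side. Iigp1, Rtp4 and Gbp4 had no window in that table. Overlapping cores form 1 longer run of capitals. The stretches are written 5′ to 3′ along the strand of the gene. Those of Ifit1 (chr19:34640765-34640833, + strand), Ifit3 (chr19:34583353-34583436, + strand) and Rsad2 (chr12:26456543-26456592, − strand) hold response element cores only. That of Bst2 (chr8:71537567-71537628, − strand), the member with the largest range across the arrays, holds a gamma-activated core and a pair of response element cores, of which it overlaps the first. The neighbours Igtp (chr11:58199491-58199551, + strand) and Irgm2 (chr11:58214882-58214942, + strand) hold both kinds a pair of bases apart, and Gbp3 (chr3:142559979-142560034, + strand) and Gbp7 (chr3:142530210-142530312, + strand) are neighbours in a cluster.
Ifit1: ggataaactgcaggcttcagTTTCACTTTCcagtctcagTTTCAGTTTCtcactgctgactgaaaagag
Ifit3: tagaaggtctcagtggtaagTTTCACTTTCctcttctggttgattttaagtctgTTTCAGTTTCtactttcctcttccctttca
Rsad2: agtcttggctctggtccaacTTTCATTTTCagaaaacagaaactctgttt
Bst2: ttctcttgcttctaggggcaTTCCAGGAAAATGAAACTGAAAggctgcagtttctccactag
Igtp: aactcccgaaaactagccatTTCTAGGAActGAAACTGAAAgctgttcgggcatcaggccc
Irgm2: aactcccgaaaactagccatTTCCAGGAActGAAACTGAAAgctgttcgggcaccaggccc
Gbp3: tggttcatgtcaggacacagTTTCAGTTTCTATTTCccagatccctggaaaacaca
Gbp7: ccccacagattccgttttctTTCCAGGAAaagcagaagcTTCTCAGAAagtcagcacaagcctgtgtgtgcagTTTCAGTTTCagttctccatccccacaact

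The Igtp and Irgm2 stretches were identical at 59 of 61 bases. Counted from 1 at the 5′ end, with the base of Igtp first, they differed by T24C, inside the gamma-activated core, and by T54C, outside both cores. Neither core was found for Oasl1, Oasl2, Cmpk2, Xaf1, Ifi44 and Ifi47, which says only that these letters are not in this window. Of the 16 measured members with a response element core, 15 were lower in LTKO than in its control (54.3% of all genes), with a median of −0.35, and 7 were lower in LDKO (49.7% of all genes), with a median of 0.02. Of the 7 without one, 6 were lower in LTKO, with a median of −0.20, and 5 were lower in LDKO, with a median of −0.33.

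**Figure D1:**
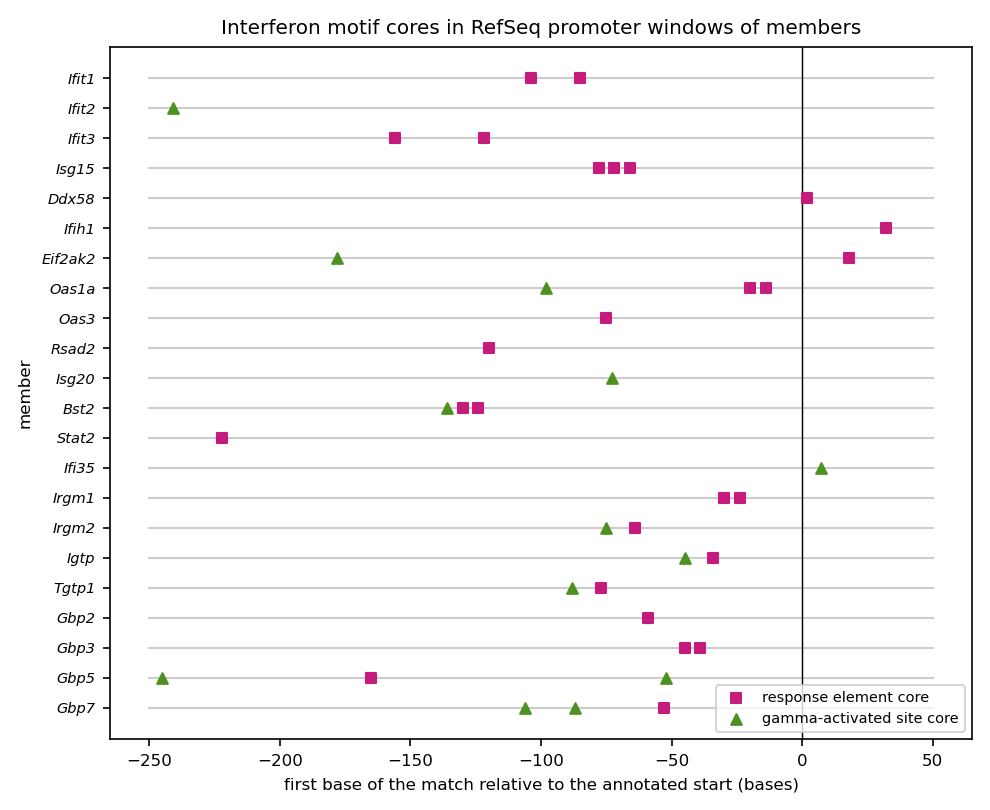
Each row is a member with at least 1 match, and the grey line is its RefSeq promoter window from 250 bases before to 50 after the annotated start. Squares mark the first base of a response element core and triangles that of a gamma-activated core; Isg15 holds 3 response element cores between 78 and 66 bases before its start, and Ifit1 holds cores at 104 and 85.

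LTKO fat held less mRNA of most interferon-responsive genes than fat of the FoxO1 control. Of the 24 members whose mean over the arrays reached the median gene (5.15, the filter used for counts), 22 were lower, against 58.1% of the 11090 genes past the same filter. The median difference was −0.30, against −0.04 for all genes past the filter. At least 1.5-fold lower were 6 members, Ifit3, Oasl2, Rsad2, Rtp4, Iigp1 and Gbp4, against a background of 0.766%, and 1 was at least 1.5-fold higher, Bst2, against 2.42%. Over all 34 measured members 30 were lower (54.3% of all genes). The 4 that were higher were Bst2 by 0.68, and Oasl1, Gbp6 and Oas2 by 0.02 each. None of the members was 2-fold apart. In bulk tissue, fewer cells of a type and less RNA per cell cannot be told apart.

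The size of that difference depended on which control was used. The FoxO1 control held the highest signal of the 4 arrays for 17 of 34 members, against 26.3% of all genes, and the LTKO array held the lowest for 20, against 25% of all genes, and the highest for 0, against 21.7%. Against the Irs control, 28 of 34 members were lower in LTKO (50.8% of all genes), with a median of −0.20. Of the 24 members past the filter 2 were then at least 1.5-fold lower, Iigp1 at −0.74 and Irgm2 at −0.70, against 1.96% of genes past it. Both comparisons use the same LTKO array.

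In LDKO fat the list lay near level with the Irs control. Of the 24 members past the filter 12 were lower, against 57.4% of genes past the filter, and the median was 0.01, against −0.05 for all of them. At least 1.5-fold lower were 2 members, Isg20 and Oasl2, against a background of 3.72%, and none was 1.5-fold higher, against 2.63%. Over all 34 measured members 17 were lower, against 49.7% of all genes. Against the FoxO1 control 22 of 34 were lower in LDKO (49.7% of all genes), with a median of −0.14. Of the 24 past the filter 16 were lower, against 61% of genes past it. At least 1.5-fold lower were 3 of the 24 past the filter, Oasl2 (−1.06), Rsad2 (−0.64) and Isg20 (−0.60), against 4.1%, and the dim Mx2, and Bst2 was higher by 1.57.

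The differences of the 2 Cre lines, which share no array, showed little relation across the 34 members, with Pearson's r of 0.04 and Spearman's rho of 0.05; the members share the 4 arrays and are not independent. All 11090 genes past the filter gave values as near 0, with r of −0.04 and rho of −0.03. Both lines were lower than their own controls at 15 members, against 26.8% of all genes. LDKO was higher and LTKO lower at another 15, against 27.4%, and both were higher at 2, Bst2 and Gbp6, against 22.6%. The difference of effects, LTKO minus LDKO, was negative for 26 of 34 members, against 51.4% of all genes, with a median of −0.33. It was at least 1.5-fold negative for 5 of the 24 past the filter, against 4.99%. It was at least 1.5-fold positive for 1, Isg20 (0.72), against 6.93%. With 1 array a group this difference has no test.

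**Figure D2:**
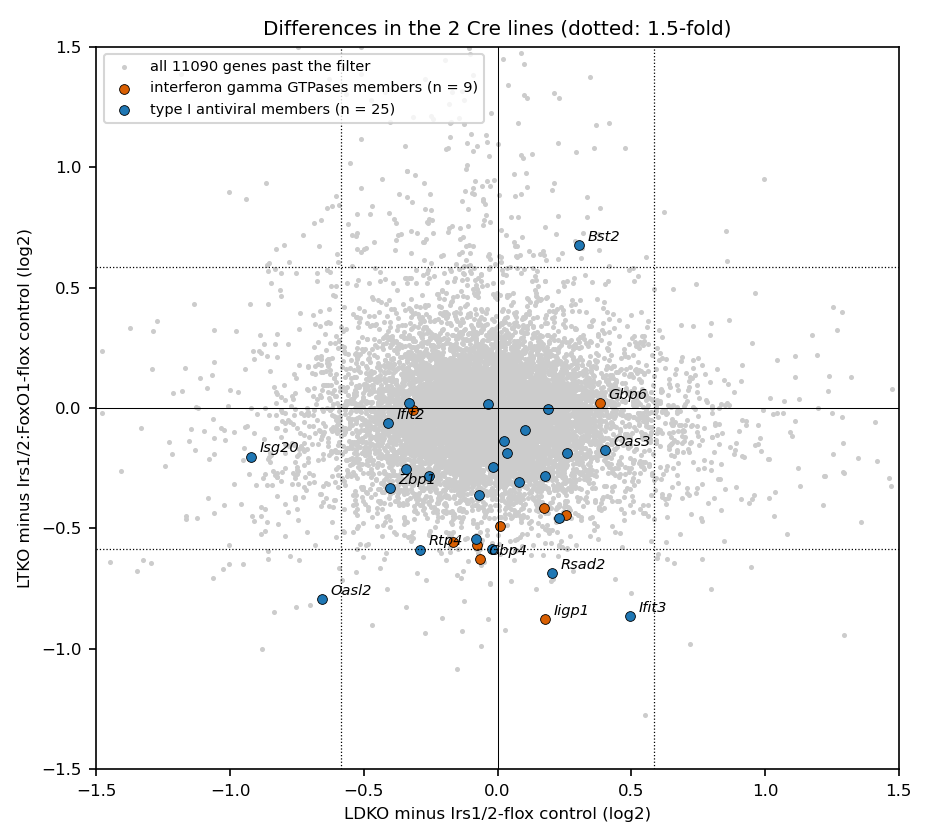
Each point is a gene, with the log2 difference of LDKO from the Irs control on the x axis and that of LTKO from the FoxO1 control on the y axis; grey points are the 11090 genes past the filter (those beyond 1.5 either way are outside the axes), blue and orange points the type I antiviral and GTPase members, and dotted lines mark 1.5-fold. Most members lie below the horizontal zero line and on both sides of the vertical one, and Bst2 stands alone above the upper dotted line.

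The 5 sensors of foreign RNA had a median of 0.03 in LDKO and −0.28 in LTKO, and none was 1.5-fold from its own control. Ifih1 (MDA5), which binds long double-stranded RNA, was 7.90 in the Irs control, 7.64 in LDKO, 7.88 in the FoxO1 control and 7.60 in LTKO, so that both Cre arrays lay below both controls. Ddx58 (RIG-I), which reads short RNA with a triphosphate end, stayed between 6.91 and 7.10. Dhx58 (LGP2), a regulator of both, was dim and was 4.56, 4.79, 4.75 and 4.29 in the same order, lowest in LTKO. Eif2ak2 (PKR), the kinase that halts translation on double-stranded RNA, was 7.50 and 7.53 in the Irs control and LDKO and 7.31 and 7.13 in the FoxO1 control and LTKO. Zbp1, a sensor of Z-form nucleic acid, was 5.30 and 5.28 in the controls and 4.89 and 4.95 in LDKO and LTKO. All 5 sensors were lower in LTKO than in its control (54.3% of all genes), Ddx58 by less than 0.01, and 2 of 5 were lower in LDKO (49.7%).

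Among the signalling members, Stat2, a transcription factor behind the type I receptor, was 6.32 and 6.40 in the Irs1/2-flox and FoxO1 controls and 5.98 and 6.14 in LDKO and LTKO. Both Cre arrays were thus below both controls. Ifi35 was 6.67, 6.84, 6.92 and 6.64, and its 2 probe sets gave the same direction in both lines. Isg15, the ubiquitin-like protein joined to other proteins during the response, was dim and ranged from 4.36 in LTKO to 4.60 in its control. Usp18, which removes Isg15 and dampens the type I receptor, ranged from 5.25 in the Irs control to 5.63 in the FoxO1 control.

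The Ifit genes encode proteins that bind viral RNA lacking the cap of the host. Ifit3 was 5.09 in the Irs control, 5.59 in LDKO, 5.84 in the FoxO1 control and 4.98 in LTKO. It was thus higher in LDKO by 0.50 and lower in LTKO by 0.86, the members' most negative difference of effects (−1.36). LTKO lay only 0.11 below the Irs control. Ifit1 was 5.74, 5.72, 6.11 and 5.52 in the same order, a difference of −0.58 in LTKO that falls just short of 1.5-fold, and Rtp4, at −0.59, falls just past it. Ifit2, the neighbour of Ifit3, had another order, with 5.46, 5.05, 5.25 and 5.19, and was lowest in LDKO. Ifit3 has a near-identical copy, Ifit3b, and the signal of the probe set may include both.

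The oligoadenylate synthetases make the messenger that activates RNase L, and the Oas-like proteins are their relatives. Oasl2 was 6.49 in the Irs control, 5.83 in LDKO, 6.89 in the FoxO1 control and 6.10 in LTKO. Both Cre arrays lay at least 0.39 below both controls, and Oasl2 was the sole member at least 1.5-fold lower in LDKO (−0.65) and in LTKO (−0.80) against its own control. Its neighbour Oasl1 was 4.87, 4.54, 4.60 and 4.62, lower in LDKO by 0.33 and level in LTKO. Oas2 stayed between 5.66 and 5.80. Oas3, dim at 4.45, 4.86, 4.71 and 4.54, was higher in LDKO by 0.40 and lower in LTKO by 0.17.

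The Mx genes encode dynamin-like GTPases that trap viral nucleoproteins, and most inbred mouse strains carry a defective Mx1. Mx1 stayed between 3.10 and 3.28, well under the median gene. Mx2 was 3.46 in the Irs control, 3.38 in LDKO, 4.36 in the FoxO1 control and 3.82 in LTKO. Both arrays of the FoxO1-flox line lay at least 0.36 above both arrays of the other line, and Mx2 was the sole member with that order.

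Other effectors went several ways. Rsad2 (viperin), an enzyme that makes a chain-terminating nucleotide, was 5.27 in the Irs control, 5.48 in LDKO, 6.12 in the FoxO1 control and 5.43 in LTKO. The FoxO1 control was thus its high array, and LTKO differed by −0.69 from that control and by 0.16 from the Irs control. Its neighbour Cmpk2, a nucleotide kinase, was 6.03, 5.96, 6.11 and 5.75. Rtp4, a transporter chaperone, was 6.88, 6.59, 7.13 and 6.54, with both Cre arrays below both controls. Isg20, an exonuclease, was 7.95, 7.03, 7.62 and 7.42, and its difference of −0.92 in LDKO was the largest of any member in that line.

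Bst2 (tetherin), which holds budding virus at the cell surface and is also displayed by plasmacytoid dendritic cells, was 7.66 in the Irs control, 7.96 in LDKO, 6.40 in the FoxO1 control and 7.07 in LTKO. It followed the floxed line, since both Irs1/2-flox arrays lay at least 0.58 above both FoxO1-flox arrays, and within each line the Cre array was the higher. The controls differed by −1.26, which made Bst2 the sole member at least 2-fold apart between them. Xaf1, a pro-apoptotic partner of the IAP inhibitors, had the same order of lines with 6.70 and 6.80 against 6.31 and 6.22. Parp14, a mono-ADP-ribosyltransferase, stayed between 7.57 and 7.88.

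**Figure D3:**
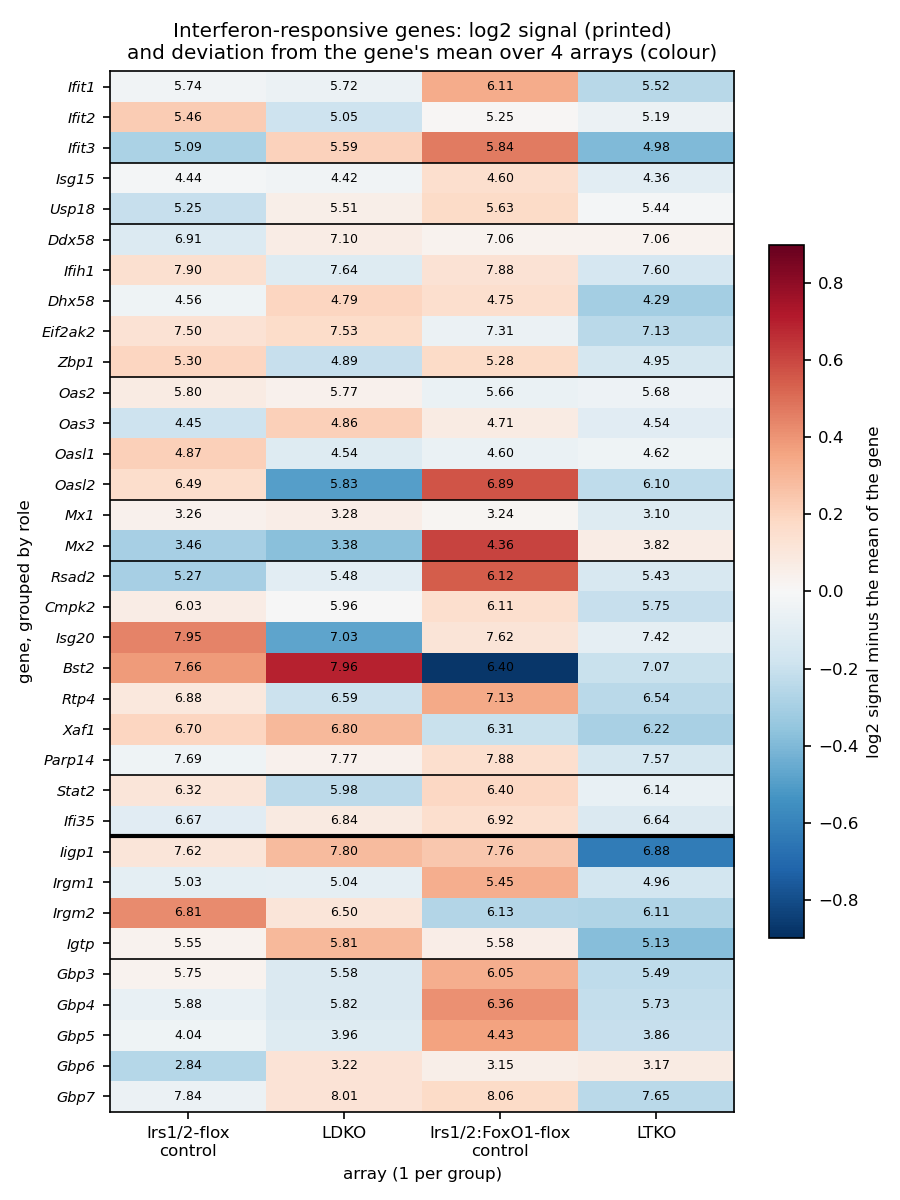
Rows are the 34 measured members grouped by role, with the thick line between the type I antiviral genes and the GTPases, and columns are the 4 arrays. Printed numbers are log2 signals and the colour is the deviation from the mean of the gene; the column of the FoxO1 control is mostly red and that of LTKO mostly blue, with Bst2 the deepest blue cell in the control column.

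The GTPases that interferon gamma induces coat vacuoles that hold bacteria and parasites. Of the 9 measured, 8 were lower in LTKO than in its control, with a median of −0.49. Of the 25 type I antiviral members 22 were lower, with a median of −0.25 (54.3% of all genes lower). The FoxO1 control was above the Irs control for 8 of 9 GTPases, by a median of 0.30. It was above for 15 of 25 type I members, by 0.16 (50.8% of all genes). Against the Irs control the middle LTKO value was −0.19 for the GTPases (Gbp7) and −0.21 for the type I members (Ifit1), so the gap between the classes was not seen there. In LDKO 4 of 9 GTPases and 13 of 25 type I members were lower, near the 49.7% of all genes, with medians of 0.01 and −0.02. LTKO was the lowest array for 8 of 9 GTPases and 12 of 25 type I members, against 25% of all genes. Set directly against LDKO, LTKO was lower for all 9 GTPases, by a median of −0.10, and for 18 of 25 type I members, by a median of −0.07. Of all 22180 genes 11264 were lower in that comparison. The difference between the 2 classes was not tested.

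Iigp1 (Irga6), an immunity-related GTPase that acts on the vacuole itself, was 7.62 in the Irs control, 7.80 in LDKO, 7.76 in the FoxO1 control and 6.88 in LTKO. The other 3 arrays lay within 0.18 of each other and LTKO lay at least 0.74 below them, the clearest case of a member that set LTKO apart. Igtp (Irgm3), a regulator of the family, was 5.55, 5.81, 5.58 and 5.13 and had the same order, with LTKO at least 0.42 below the rest. Irgm1, another regulator, was 5.03, 5.04, 5.45 and 4.96, so that the control of LTKO was the array that differed.

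Irgm2 did not follow Igtp, its neighbour with a near-identical promoter stretch. It was 6.81 and 6.50 in the Irs control and LDKO and 6.13 and 6.11 in the FoxO1 control and LTKO. Both Irs1/2-flox arrays lay at least 0.37 above both FoxO1-flox arrays, and LTKO differed from its own control by −0.01.

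The guanylate-binding proteins lyse such vacuoles and start inflammasome signals. Gbp4 was 5.88 in the Irs control, 5.82 in LDKO, 6.36 in the FoxO1 control and 5.73 in LTKO. Gbp3 was 5.75, 5.58, 6.05 and 5.49, and the dim Gbp5 4.04, 3.96, 4.43 and 3.86. For these 3 the control of LTKO was the high array and LTKO lay 0.15 to 0.26 below the other control. Gbp7 was 7.84, 8.01, 8.06 and 7.65, lowest in LTKO. Gbp6, at 2.84 to 3.22, lay well under the median gene and has near-identical copies in its cluster, so its values are uncertain. All 5 were higher in the FoxO1 control than in the Irs control, by 0.23 to 0.48.

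**Figure D4:**
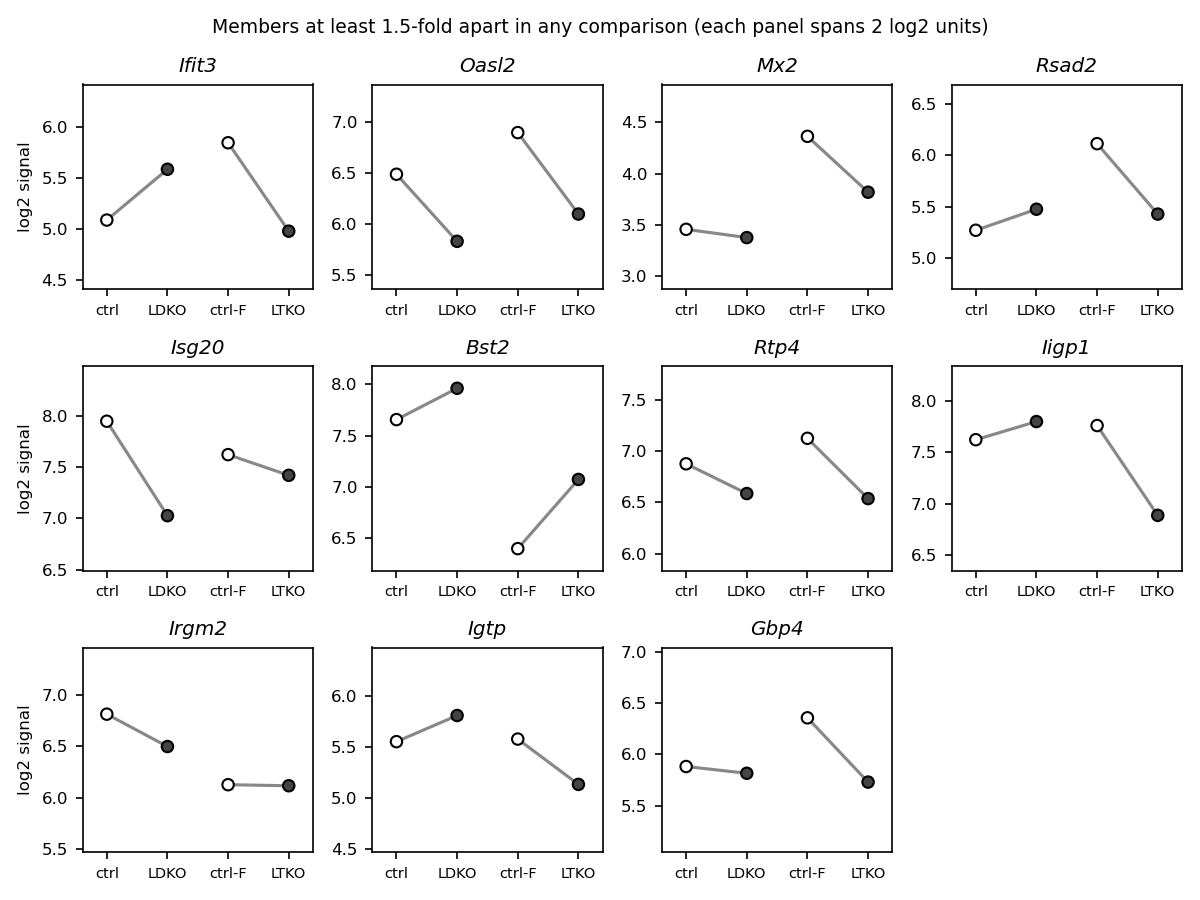
Each panel is 1 of the 11 members at least 1.5-fold apart in any comparison, with the log2 signal on a y axis of 2 units and 1 point per array: ctrl is the Irs control, ctrl-F the FoxO1 control, open points are controls, and lines join each Cre array to its own control. Iigp1 and Igtp are low in LTKO alone, Oasl2 is low in both Cre arrays, and Bst2 and Irgm2 are higher in the 2 arrays on the left.

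The 2 controls differed as well. Of 34 members 23 were higher in the FoxO1 control than in the Irs control (50.8% of all genes), with a median of 0.18. Past the filter 2 of 24 were at least 1.5-fold higher, Ifit3 by 0.75 and Rsad2 by 0.85, against 1.95%, and 2 were at least 1.5-fold lower, Bst2 and Irgm2, against 2.28%. The dim Mx2 was higher by 0.91. The arrays of the 2 floxed lines did not overlap at 7 members: Bst2, Irgm2, Xaf1, Eif2ak2, Oas2 and Mx1 were higher in both Irs1/2-flox arrays (6 of 34, against 18.3% of all genes) and Mx2 in both FoxO1-flox arrays (against 17.5%). Line, animal and array cannot be told apart here.

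Both Cre arrays lay below both control arrays at 13 of 34 members, against 16.7% of all genes, and at 10 of the 24 past the filter, against 20.2%. These were Oasl2, with a gap of 0.39, Zbp1 (0.33), Rtp4 (0.29), Ifih1 (0.25), Isg20 (0.20), Stat2 (0.18) and Gbp3 (0.17), and, with gaps under 0.08, Ifit1, Ifit2, Isg15, Cmpk2, Gbp4 and Gbp5. Both Cre arrays lay above both controls at Gbp6 alone, by 0.02, against 14.7% of all genes. Across the 4 arrays the 24 members past the filter spanned a median range of 0.57, against 0.33 for all genes past it.

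Set directly, LTKO was lower than LDKO at 20 of the 24 members past the filter, against 42.4% of genes past it, with a median of −0.14. At least 1.5-fold lower were 4 of them, Ifit3 (−0.60), Bst2 (−0.89), Iigp1 (−0.92) and Igtp (−0.67), against 2.29%, and none was 1.5-fold higher, against 4.51%. Bst2 was nevertheless higher in LTKO than in its own control.

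The genes of the pathway outside the list were read next. Of 12 ligand genes measured, 8 lay below the median gene, among them interferon beta (Ifnb1, 2.67 to 2.83) and interferon gamma (Ifng, 3.91 to 3.99). Those of Ifna1, Ifna4, Ifnl2 and Ifnl3 lay above it, and Ifna1 was 6.44 in the Irs control, 7.09 in LDKO, 6.52 in the FoxO1 control and 6.41 in LTKO. Ifnl3 differed by −0.58 in LTKO and Ifnl2 by 0.37 in LDKO. These genes have near-identical copies and their values are uncertain. Among the receptors, Ifnar1 was 8.06, 8.22, 8.32 and 8.10 in the order of groups above and Ifnar2 9.63, 9.95, 9.90 and 9.65. Both chains of the type I receptor thus stood above the own control in LDKO (by 0.16 and 0.32) and below it in LTKO (by 0.22 and 0.25). Set against the other control, Ifnar1 and Ifnar2 differed by 0.04 and 0.02 in LTKO and by −0.10 and 0.05 in LDKO. The opposite sides thus depended on the control used. Il10rb and Ifnlr1, chains of the lambda receptor, each differed by −0.26 in LTKO. The gamma receptor chains Ifngr1 (11.14 to 11.25) and Ifngr2 (7.33 to 7.46) were nearly level.

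Signalling genes were close to level. Of 9 measured, 4 were lower in LDKO (49.7% of all genes) and 6 in LTKO (54.3%), with medians of 0.04 and −0.02. None was 1.5-fold apart in either line. Irf9, the DNA-binding partner of Stat2, was 6.84 and 6.83 in the controls and 6.49 and 6.73 in LDKO and LTKO. Irf7, which is itself induced by interferon and amplifies it, ranged from 5.56 to 5.84, and Irf1, the factor that gamma signals induce, from 6.05 to 6.32. Irf2, a repressor at response elements, differed by −0.35 in LDKO and 0.15 in LTKO, and Irf3 by 0.11 and −0.27. Irf5 was not analysed here. Of 10 sensing genes and adaptors 7 were lower in LDKO (49.7% of all genes) and 8 in LTKO (54.3%), with medians of −0.10 and −0.13. The largest differences were those of the antiviral zinc finger protein Zc3hav1 (−0.40 in LDKO), the RNA receptor Tlr7 (−0.36 in LTKO) and the adaptor Ticam1 (−0.24 in LDKO). Of 9 feedback inhibitors 6 were lower in LDKO (49.7% of all genes) and 5 in LTKO (54.3%), with medians of −0.04 and −0.12. Cish was the sole gene of these 9 at least 1.5-fold lower in LTKO (−0.59), against 0.852% of all genes. Socs1 was higher by 0.52 there, and the phosphatase Ptpn2 differed by −0.50 in LDKO and 0.25 in LTKO.

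Further interferon-stimulated genes were mostly lower in LTKO than in its own control too. Of 36 measured, 30 were lower in LTKO (54.3% of all genes), with a median of −0.16, and 23 were lower in LDKO (49.7%), with a median of −0.08. Of the 29 past the filter 25 were lower in LTKO, against 58.1% of genes past it. In LDKO 17 of the 29 were lower, near the 57.4% of genes past it. At least 1.5-fold lower in LTKO were 3 of the 36, Oas1g (−0.85), Oas1b (−0.73) and Ddx60 (−0.60), against 0.852% of all genes. All 3 lay below the median gene, none of the 29 past the filter was that far apart, and the first pair has near-identical copies. Ifi27 was higher by 0.67 in LDKO and differed by −0.10 in LTKO. The LTKO count depended on the control, since fewer of the 36 were lower in LTKO against the Irs control. Between the controls 24 of the 36 were higher in the FoxO1 control (50.8% of all genes), with a median of 0.11.

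Of 21 measured interferon gamma-inducible genes outside the list, LDKO stood above its control for 18, with a median of 0.22, against 50.1% of all genes. In LTKO 16 were lower than in its control, with a median of −0.25, against 54.3%. Both counts were lost with the other control. Against it 11 were higher and 9 lower in LTKO (49.1% of all genes higher). In LDKO 12 were higher and 9 lower against it (50.3% of all genes higher). For 13 of 21 LDKO was higher and LTKO lower (27.4% of all genes), while 3 were lower in both lines and 5 higher in both. Tap1, the peptide transporter, was 7.04 in the Irs control, 7.31 in LDKO, 7.78 in the FoxO1 control and 7.20 in LTKO. The chemokine Cxcl9, named after its values were seen, was 8.60, 9.18, 8.79 and 8.24, highest in LDKO and lowest in LTKO. The 3 that were lower in both were the complement inhibitor Serping1, at −0.60 in LDKO and −0.33 in LTKO, Gbp8, at −0.81 and −0.12 and below the median gene, and Tap2, at −0.03 and −0.28. Between the controls 17 of 21 were higher in the FoxO1 control, with a median of 0.19.

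Markers of several cell types differed beside these lists. Of all genes 50.1% were higher in LDKO and 54.3% lower in LTKO than in their own controls. Of genes past the filter 57.4% were lower in LDKO and 58.1% in LTKO. The counts below stand beside these shares. T and NK cell markers were higher in LDKO for 12 of 12 genes, with a median of 0.28, and lower in LTKO for 8 of 12, with a median of −0.26; the mean log2 level of the list was 4.53 in the Irs control, 4.86 in LDKO, 4.56 in the FoxO1 control and 4.41 in LTKO. Of these 12 markers 8 lay below the median gene, among them Cd3d, Cd8a and Ncr1. B cell markers were higher in LDKO for 5 of 5 genes, with Ighm at 8.67, 9.91, 8.45 and 8.52, and 4 of 5 lay below the median gene. Macrophage markers were lower in both lines, 13 of 15 in LDKO and 14 of 15 in LTKO, with mean levels of 7.86, 7.50, 7.73 and 7.37. The 5 markers of plasmacytoid dendritic cells other than Bst2 had medians of 0.05 in LDKO and −0.15 in LTKO, and only 1, Tcf4, reached the median gene. Between the controls 3 of them were higher in the FoxO1 control and 2 lower, Siglech (−0.37) and Cox6a2 (−0.36), beside −1.26 for Bst2. Cox6a2, at 4.74, 5.02, 4.38 and 4.45, had the array order of Bst2. None of 6 neutrophil markers reached the median gene. Mesothelial markers were lower in LDKO for 8 of 8 genes, with a median of −0.65 and 5 at least 1.5-fold lower, against 3.72% of genes past the filter. They were lower in the FoxO1 control than in the Irs control for 8 of 8, with a median of −0.52, against 4904 of the 11090 genes past it. In LTKO 5 of 8 mesothelial markers were lower than in its control, with a median of −0.19. There 2 were at least 1.5-fold higher, Krt8 (0.91) and Krt18 (0.84), against 2.42% of genes past the filter. Only 1 was at least 1.5-fold lower, Lrrn4 (−0.65), against 0.766%. Stromal progenitor markers were lower for 7 of 7 genes in LDKO, with a median of −0.44, and for 6 of 7 in LTKO, with a median of −0.16. Endothelial markers had medians of 0.03 in LDKO and −0.09 in LTKO. Between the controls 8 of 8 of them were higher in the FoxO1 control, with a median of 0.13 (50.8% of all genes). Macrophage markers were lower there for 12 of 15 genes, with a median of −0.16. Conventional dendritic cell and MHC II markers were higher in LDKO for 7 of 8 genes, with a median of 0.26. In LTKO 4 of these 8 were lower, with a median of 0.04. The part of these cells in the differences of the members was not tested.

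**Figure D5:**
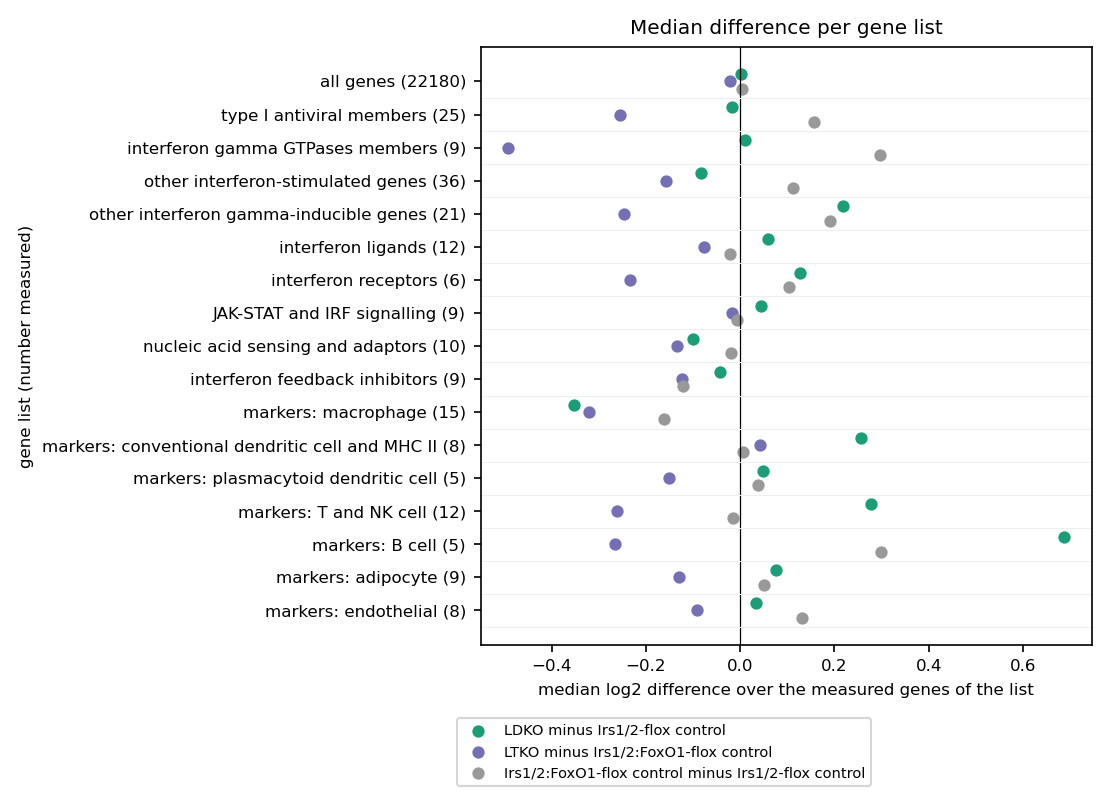
Each row is a gene list with the number of genes measured, and points are the median log2 difference of LDKO from its control (green), of LTKO from its control (purple) and between the 2 controls (grey). The GTPase members are at −0.49 in LTKO and at 0.30 between the controls, and T and NK cell markers lie on opposite sides in LDKO and LTKO.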

How the data were processed

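Total RNA was turned into biotin-labelled single-stranded DNA and read on a whole-transcript Affymetrix array, as the labels' protocols say, with 1 array in each of 4 groups. The authors made the deposited log2 values per probe set with Affymetrix Expression Console and RMA, per the submitters' processing notes; no source used here gives their versions or which arrays were normalized together. RMA removes a shift of all genes and compresses differences of dim probe sets.

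Of 41345 probe sets 23521 had 1 symbol in the platform annotation, which gave 22180 genes; 1814 had several symbols and were left out, and 16010 were unnamed. A gene was its brightest probe set by the mean over the arrays. Counts used genes whose mean reached the median gene (5.15), which 24 of 34 measured members did, and a threshold of 1.5-fold (0.585). No test was made, since each group has 1 array. Members, lists and rules were chosen with earlier results of these data known. All measured members are given; those past 1.5-fold in any comparison, and the 3 with the largest difference each way per class and line, are given in every array, and of each pathway list up to 3 genes by size plus fixed receptors and factors. Promoter letters are from RefSeq; protein sequences were not used here. Steps were tested on simulated data. The software was pandas 2.3.3 and numpy 2.4.6 under Python 3.11.15, scipy 1.17.1 for correlations and matplotlib 3.10.9 for figures.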

Additional observations from a re-analysis of the deposited data

Results flagged for a closer look

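At 6 members LDKO and LTKO lay on opposite sides of their own controls and the effects were at least 1.5-fold apart, which is 17.6% of the 34 measured, against 9.46% of all genes. The LTKO difference minus the LDKO difference was −1.36 for Ifit3, −1.05 for Iigp1, −0.89 for Rsad2, −0.70 for Igtp, −0.69 for Dhx58 and −0.59 for Gbp7. All 6 were higher in LDKO and lower in LTKO. The difference between the lines was not tested, since each group has 1 array. For Ifit3 and Rsad2 the values hold the difference of 0.75 and 0.85 between the 2 controls, and LTKO set directly against LDKO was at −0.60 and −0.05. For Iigp1 and Igtp the direct differences were −0.92 and −0.67.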

How the results depend on the processing

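Each count and median of the members past the filter was recomputed under other thresholds, filters, controls and probe rules, and with the median of all genes past the filter subtracted, which was added after the data were seen. Of 160 such values 125 stayed within 1.5 times the reported one, or within 0.05 for a median, and 0 medians of at least 0.1 changed sign. In LTKO the median was below 0 under every alternative, and 6 lower and 1 higher member at 1.5-fold became 0 and 0 at 2-fold, 14 lower at 1.2-fold, 2 lower with the filter at the 70th percentile (10 of 11 lower in all), and 2 lower and 0 higher with the other control or the mean of both controls. In LDKO the 2 lower members became 0 at 2-fold, 6 at 1.2-fold (with 2 higher), 1 at the 70th percentile and 1 without the member with the largest difference, Isg20; 1 was higher with the other control or the mean of both, the median was 0.10 at the 70th percentile, with 3 of 11 lower, and −0.14 with the other control. Between the controls the 2 lower became 1 at 2-fold, 4 at 1.2-fold, 1 at the 70th percentile (5 of 11 lower in all) and 1 without Bst2, and the 2 higher became 0, 7 and 0 under the first 3. For LTKO set directly against LDKO the 4 lower became 0, 8 and 2 in that order (10 of 11 lower at the 70th percentile), 2 were higher at 1.2-fold, and the median was −0.0902 without the filter, with the filter on the highest array and with the mean of all probe sets. The threshold, the filter and the reference set these counts by construction. No paired analysis was possible because each group has 1 array, and no replicate could be left out. Signal over background limits the dim members, 10 of 34, whose differences RMA compresses.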
